A study of Danio rerio with 6 samples.

Results

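Apolipoproteins are the protein components of lipoproteins, the particles that carry cholesterol and triglyceride through the blood. Each class has its own job: some form the scaffold of the particle, some are ligands for receptors, and some switch lipases on or off. The liver is a major source of these proteins, with the intestine and, in fish larvae, the yolk syncytial layer as further sources. Here 10 apolipoprotein genes were followed in livers dissected from zebrafish (*Danio rerio*) at 7 dpf (days post fertilization). They were chosen as a list of symbols (*apoa1b*, *apoa1a*, *apoa2*, *apobb.1*, *apoeb*, *apoc1*, *apoc2*, *apoda.2*, *apom* and *apoa4b.1*), and all 10 were found among the 6502 rows of the count table that carried a gene ID.

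Wild-type (WT) livers and cr*keap1a/b* livers were compared, each as 3 pools of 15 livers. cr*keap1a/b* larvae are crispants: Cas9 complexes against both Keap1 paralogs, *keap1a* and *keap1b*, were injected into embryos of 1 cell, so that the knockout is mosaic and can differ from cell to cell. Keap1 is the protein that keeps the transcription factor Nrf2 low in unstressed cells. The labels give neither the strain nor the handling of WT embryos, and the same treatment text stands for both groups. No label says whether the pools came from separate clutches, so the p-values rest on these pools only and do not cover spread between clutches. For every member except *apoa1a*, the standard error (SE) of limma-voom, the main test, was also below the one given by the spread of the pools.

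The library kit reads the 3′ end of each polyadenylated transcript, so levels of different genes were compared without division by transcript length. Library totals over rows with a gene ID ran from 9491003 to 15030262 counts. Replicate 3 stood apart in both groups: 53.2% (WT) and 47.6% (cr*keap1a/b*) of these rows were at 0 counts, against 2.83% to 13.1% for the other 4 libraries. These 2 libraries also carry the letter b, and the others the letter a, in descriptions that do not say what the letter marks. The targeted transcripts did not separate the groups. *keap1a* counts were 375, 0 and 379 for the WT pools and 291, 307 and 0 for the crispant pools, and those of *keap1b* were 314, 261 and 10 against 489, 309 and 0 (limma-voom adjusted p = 0.9996 for each). Such counts do not show whether a transcript carries an edit.

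Of the 17 hepatocyte markers listed to check the tissue, 14 were tested, and *fabp10a*, *rbp4* and *fetub* were the most abundant. Together they held most of the summed marker counts in every library, and no sum without them was computed. The summed level of the 14 markers was 66974 to 83133 CPM (counts after scaling each library to the same total) for WT. For cr*keap1a/b* it was 48952 to 62609 CPM, so the groups did not overlap. *fabp10a*, a liver fatty acid binding protein gene, and *fetub* were called lower, and no marker was called higher. Counts from whole tissue alone do not separate hepatocyte number from RNA per hepatocyte, which holds for every level given here. By imaging of cr*keap1a/b* larvae, the paper found liver volume and hepatocyte number unchanged. Hepatocyte markers did not all fall: 4 of the 14 had positive log2 fold changes by limma-voom. *ambp*, at 0.77, was higher in all crispant pools than in all WT pools, whereas *fetub* was at −1.46 and *fabp10a* at −0.49. Why the markers differed was not tested.

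Apolipoprotein transcripts were a large part of every library. The 10 genes together took 14.3%, 15.9% and 14.1% of counts for WT replicates 1, 2 and 3, against 14.4%, 13.4% and 12.0% for the crispant pools. With means of 14.8% ± 1.0 and 13.2% ± 1.18 (SD, n = 3 each), the groups overlapped. The 95% Wilson interval of each share reached at most 0.0233 percentage points to either side, less than the spread between pools. No molecular identifiers are mentioned, so such intervals cover counting error only.

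*apoa1b* dominated the sum. It held 66.1% to 83.8% of the members' counts, and 8.83% to 12.0% of the whole library. The other 9 genes held 3.90%, 3.95% and 2.28% of the library in WT, against 4.08%, 4.53% and 2.64% in the crispants. Replicate 3 was the lowest of both groups, and the groups overlapped here too. Within the sum, *apoc1* made up 3.36% ± 0.487 of the members' counts in WT but 8.97% ± 1.76 in cr*keap1a/b* (SD, n = 3 each). It also differed in *apoa1a*, at 0.436% ± 0.0363 against 1.19% ± 0.391, and in *apoda.2*, at 1.61% ± 0.623 against 0.539% ± 0.246.

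**Figure D1:**
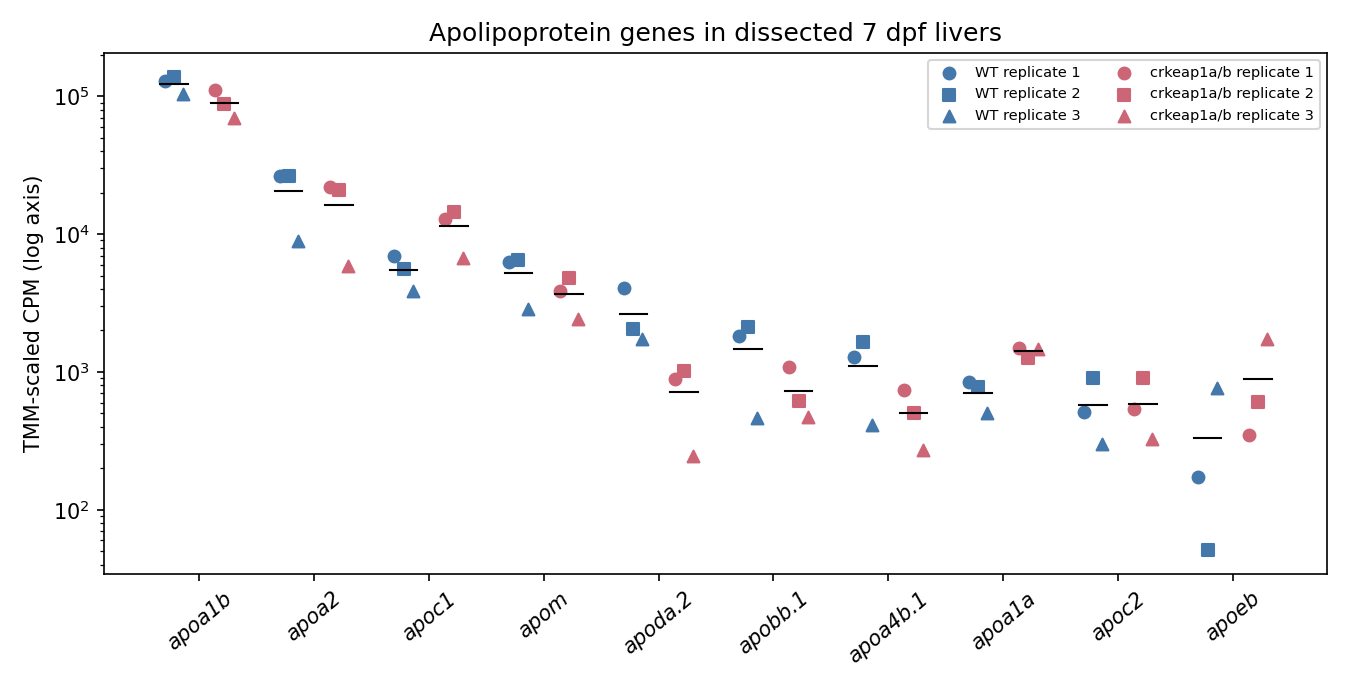
Normalised counts of the 10 apolipoprotein genes in each library, as TMM-scaled CPM on a log axis. Points are single pools, and bars are group means over n = 3 pools. Only *apoa1a* and *apoda.2* have groups that do not overlap, and replicate 3 (triangles) is the lowest pool of both groups in 8 of the 10 genes.

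By limma-voom, the paralogs of apolipoprotein A-I had log2 fold changes of opposite sign. Apolipoprotein A-I is the main structural protein of high-density lipoprotein (HDL) and in mammals activates the enzyme LCAT, which esterifies cholesterol on the particle. *apoa1b* (Entrez 100101640) was the most abundant of the 6386 genes tested. The WT pools had 1225741, 1134906 and 1774219 counts and the crispant pools 1231070, 1105954 and 1045958. After TMM scaling, which adjusts library totals for composition, these became 128342, 138960 and 103426 CPM for WT, against 110528, 87985 and 69614 CPM. The lowest WT pool lay below the highest crispant pool, so the groups overlapped, with means of 123576 ± 18240.3 and 89376 ± 20492 CPM (SD, n = 3 each). limma-voom called *apoa1b* lower, at −0.60 ± 0.039 (SE) on the log2 scale and an adjusted p of 3.2e-20. That SE was much smaller than the one given by the spread of the pools, 0.23 around a difference of −0.48. The other tests did not make the call, with adjusted p-values of 0.9997 (edgeR's quasi-likelihood test), 0.873 (DESeq2) and 0.243 (limma with a trend). Nor did limma-voom with the letter as covariate (adjusted p = 0.149) or with a block by title number (0.288) or description code (0.138). With library totals only, the limma-voom log2 fold change of *apoa1b* was −0.28, and the call was kept. Without TMM scaling, the share of the library held by *apoa1b* was 10.4%, 12.0% and 11.8% for WT but 10.3%, 8.83% and 9.37% for the crispants, which did not overlap. Shares that were lower in all crispant pools were found for 3.84% of the tested genes. Per 1000 counts of the summed hepatocyte markers, *apoa1b* overlapped between groups, with 1322, 1438 and 1763 counts for WT, against 1642, 1489 and 1913. The 10 members together had 1819, 1913 and 2102 for WT, against 2294, 2253 and 2453, higher in all crispant pools. The marker sum was itself lower in cr*keap1a/b* and rested mostly on *fabp10a*, *rbp4* and *fetub*, of which *fabp10a* and *fetub* were called lower. No share over all genes was computed for these ratios, and why they differed was not tested.

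*apoa1a* (Entrez 30355), the less abundant paralog, was higher in cr*keap1a/b*. WT pools had 8046, 6385 and 8638 counts, and crispant pools 16736, 16004 and 22025. The groups did not overlap, and the normalised means were 709 ± 181 CPM and 1414 ± 123 CPM (SD, n = 3 each). This rise was 1.13 ± 0.28 (SE) on the log2 scale, at an adjusted p of 0.0211 by limma-voom. Other scalings left it near that size, at 1.07 with RLE factors and 1.25 with library totals only, but with RLE factors the call was lost (adjusted p = 0.9999). It was also lost in edgeR (adjusted p = 0.647), DESeq2 (0.174) and limma with a trend (0.387), with rows without a gene ID included (0.0509), with the letter as covariate (0.149) and with a block by title number (0.299) or description code (0.330). The call ended in 5 of the 6 fits without 1 pool, where the log2 fold change stayed between 0.79 and 1.31. The SE there ran up to 6.15 (without crispant replicate 2). The call was kept without cr*keap1a/b* replicate 3 (limma-voom adjusted p = 0.0452). Per 1000 *apoa1b* counts of the same library, *apoa1a* had 6.56, 5.63 and 4.87 counts in WT, against 13.6, 14.5 and 21.1 in the crispants. *apoa1b* was still the larger by far in all 6 libraries. How reads that fit both paralogs were treated in counting is not given in the sources used here, so the split between them is uncertain.

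The other HDL genes, *apoa2* and *apom*, showed no call. Apolipoprotein A-II is an abundant HDL protein in mammals. *apoa2* (Entrez 322327) was the second most abundant member, at 26277, 26251 and 8988 CPM for the WT pools and 21967, 20894 and 5912 CPM for the crispant pools. Replicate 3 was far below the other pools of its group on both sides, and this spread exceeded the difference between groups. At −0.07 ± 0.21 (SE), *apoa2* did not pass (limma-voom adjusted p = 0.9996), and its sign turned with the scaling, to 0.12 with RLE factors (limma-voom adjusted p = 0.132) and 0.26 with library totals only. With library totals only the SE was 0.023, against 0.81 from the spread of the pools after TMM scaling. In that fit *apoa2* was called higher (limma-voom adjusted p = 2.09e-26), as it was without crispant replicate 3 (0.42, limma-voom adjusted p = 0.0217). It was called lower without WT replicate 3 (−0.97, adjusted p = 4.61e-06), with the letter as covariate (−0.31, adjusted p = 0.0448) and with a block by description code (−0.31, adjusted p = 0.0493), so both its direction and its call changed with the fit.

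Apolipoprotein M is a lipocalin that carries sphingosine-1-phosphate on HDL in mammals. *apom* (Entrez 569714) stood at 6311, 6481 and 2877 CPM for WT and at 3837, 4807 and 2435 CPM for the crispants. The WT values other than replicate 3 were above all crispant values, and the groups overlapped through that library. The log2 difference was −0.26 ± 0.17 (SE, limma-voom adjusted p = 0.755), but −0.87 (called lower) when WT replicate 3 was left out and −0.0074 when WT replicate 1 was.

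Of the C apolipoproteins, *apoc1* rose. Apolipoprotein C-I is a small exchangeable protein that in humans inhibits the lipid transfer protein CETP and slows the uptake of remnant particles. *apoc1* (Entrez 570638) counts were 66107, 45503 and 66771 for WT, against 144160, 183119 and 101621 for the crispants. Scaled by TMM they were 6922, 5571 and 3892 CPM, against 12943, 14568 and 6763 CPM, so that crispant replicate 3 lay just below the highest WT pool. As shares of the library total the groups were apart, from 0.444% to 0.559% for WT and from 0.910% to 1.46% for the crispants, as they were for 10.4% of all tested genes in this direction. The rise was 1.08 ± 0.16 (SE) on the log2 scale, at an adjusted p of 2.8e-06 by limma-voom, which became 0.0479 with rows without a gene ID included. The call was lost in edgeR (adjusted p = 0.275), DESeq2 (0.0760) and limma with a trend (0.0627). In limma-voom it was lost with the letter as covariate (adjusted p = 0.0846) and with a block by title number (0.167) or description code (0.0737). Leaving out WT replicate 1, WT replicate 2 or crispant replicate 2 also ended it, at log2 fold changes of 1.29, 1.18 and 0.91.

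*apoc2* did not separate the groups. It encodes apolipoprotein C-II, the activator of lipoprotein lipase. *apoc2* (Entrez 568972) had 514, 908 and 299 CPM in the WT pools and 536, 900.1 and 328 CPM in the crispant pools. Replicate 2 was highest and replicate 3 lowest on both sides, and the log2 difference was 0.20 ± 0.40 (SE, limma-voom adjusted p = 0.981).

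*apoeb* had a higher mean in cr*keap1a/b* but did not pass. Apolipoprotein E binds receptors of the LDL receptor family and so directs particles into cells. *apoeb* (Entrez 30314) had 1660, 416 and 13109 counts in the WT pools and 3871, 7573 and 26086 in the crispant pools. After TMM scaling it was the only member whose replicate 3 was the highest pool of both groups, and the WT pools alone differed more than 10-fold. The normalised means were 330 ± 381 and 895 ± 739 CPM (SD, n = 3 each), a log2 difference of 1.62 ± 0.57 (SE, limma-voom adjusted p = 0.216). Leaving out WT replicate 2 lowered it to 0.89, and leaving out WT replicate 3 raised it to 2.92, where it was called higher.

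*apobb.1* and *apoa4b.1*, which encode proteins of triglyceride-rich particles, had lower means in cr*keap1a/b* and did not pass. Apolipoprotein B is the scaffold on which very-low-density lipoprotein and chylomicrons are built. *apobb.1* (Entrez 321166) had 1825, 2113 and 465 CPM for WT, against 1084, 611 and 472 CPM. The range of the WT pools covered all crispant values, since WT replicate 3 was lower than any of them. The log2 difference was −0.55 ± 0.36 (SE, limma-voom adjusted p = 0.750), but −1.56 (called lower) when WT replicate 3 was left out and −0.17 when WT replicate 1 was.

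Apolipoprotein A-IV is made mainly by the intestine in mammals and accompanies lipid absorption. *apoa4b.1* (Entrez 322543) had 1278, 1642 and 412 CPM for WT, against 734, 499.8 and 270.02 CPM. Only WT replicate 3 lay within the crispant range, and the log2 difference was −0.82 ± 0.39 (SE, limma-voom adjusted p = 0.597). Leaving out WT replicate 3 gave −1.68, which was called lower, and leaving out WT replicate 2 gave −0.45. The counts of *apobb.1* and *apoa4b.1* kept a like ratio in every library, from 1.13 to 1.43 for WT and from 1.22 to 1.75 for the crispants. Of 17 intestinal markers listed, 7 were tested and none was called. Their sum was 230.2 to 453 CPM of the library total for WT and 156 to 648 CPM for the crispants, and their part in the counts of *apoa4b.1* and *apobb.1* was not tested.

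*apoda.2* fell, with the lowest log2 fold change of the members. Apolipoprotein D, like apolipoprotein M, is a lipocalin, and it binds small lipophilic molecules. *apoda.2* (Entrez 100148022) counts were 38930, 16788 and 29835 for WT but 9968, 12736 and 3687 for the crispants. The groups did not overlap, and the normalised means of 2624 ± 1268 and 718 ± 413 CPM (SD, n = 3 each) differed 3.65-fold. On the log2 scale the fall was −1.99 ± 0.33 (SE), at an adjusted p of 1.58e-05 by limma-voom. *apoda.2* was also called lower by DESeq2 (adjusted p = 0.00322) and by limma with a trend (0.0153), but not by edgeR (0.0995). In limma-voom its call was lost with the letter as covariate (adjusted p = 0.245) and with a block by title number (0.267) or description code (0.194). The call ended without WT replicate 1, WT replicate 2 or crispant replicate 2, at log2 fold changes of −1.65, −1.97 and −2.32. The SEs in these fits were 3.58, 1.19 and 7.22, against 0.33 with all pools. No fit without 1 pool brought the log2 fold change above −1.29.

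Pancreatic genes were also lower in cr*keap1a/b*. Of 26 exocrine pancreas markers listed, 14 were tested, 9 were called lower and none higher, and in 12 all crispant pools were below all WT pools. The most abundant were *prss59.2*, *prss1* and *cela1.2*, which encode digestive proteases. The summed level of these markers was 25840 to 38186 CPM of the library total for WT, against 12095 to 14062 CPM. Among 1634 other genes with at least 10 counts in every library, the pattern nearest to *apoda.2* was that of *amy2a*, pancreatic amylase, at a root mean square difference of 0.17 between centred log2 CPM values over the 6 libraries. The next were *slc43a3b* and *slc38a4*, members of amino acid transporter families, at 0.33 and 0.35. For *apoa1b*, the nearest patterns were those of *serpina1*, *anxa4* and *slc25a5*, at 0.10, 0.11 and 0.12.

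The ratio of *apoda.2* to *amy2a*, computed after this likeness was seen, overlapped between groups. Because *amy2a* was picked for its likeness to *apoda.2*, the overlap follows from that choice and carries no further information. It was 1586, 1210 and 1350 *apoda.2* counts per 1000 *amy2a* counts for WT, against 1533, 1637 and 1233. Per 1000 counts of the summed pancreatic markers, *apoda.2* had 86.3, 68.5 and 54.6 for WT, against 68.8, 72.3 and 24.2. Here crispant replicate 3 was the lowest library by far and the other 5 overlapped. Sums of some other marker lists were apart between groups as well, though no gene of these lists was called. Skeletal muscle markers summed to 391 to 1685 CPM of the library total for WT, against 160 to 262, markers of biliary and other epithelium to 1263 to 1447, against 1018 to 1037, and erythrocyte markers to 458 to 760, against 911 to 2351. In the epithelium list, *anxa4* was the most abundant, at TMM-scaled means of 1311 CPM (WT) and 836 CPM (crispants). It was the only 1 of the 6 genes tested there whose groups did not overlap, and 2 of the 6 had positive log2 fold changes. The part of pancreatic or other tissue in the *apoda.2* counts was not tested.

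**Figure D2:**
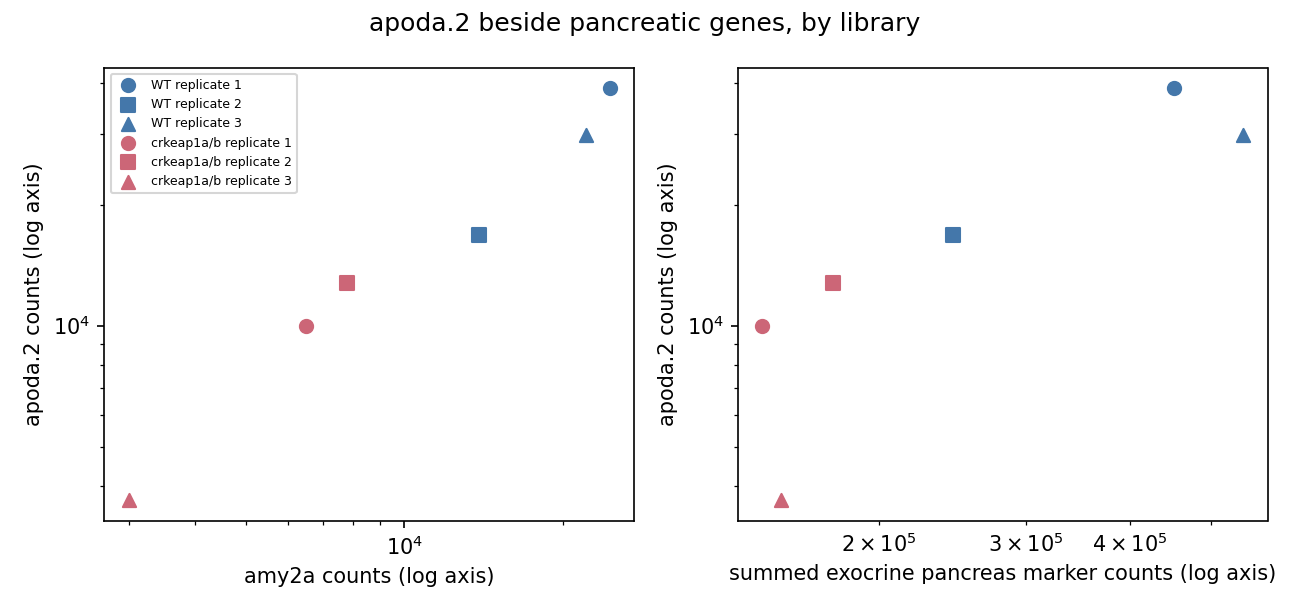
Counts of *apoda.2* in each of the 6 libraries against counts of *amy2a* (left) and against the summed counts of 14 exocrine pancreas markers (right), all on log axes. *amy2a* was picked for its likeness to *apoda.2*. The 3 WT libraries have 16788 or more *apoda.2* counts and the 3 crispant libraries 12736 or fewer, and in the right panel crispant replicate 3 lies below the other libraries.

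At an adjusted p under 0.05, limma-voom called 2 of the 10 members higher in cr*keap1a/b* (*apoc1* and *apoa1a*) and 2 lower (*apoa1b* and *apoda.2*). Over all 6386 genes tested, 0.595% were called higher and 0.595% lower. The spread of the pools gave SEs of 0.42 for *apoc1*, 0.23 for *apoa1b* and 0.75 for *apoda.2*, above the limma-voom SEs of 0.16, 0.039 and 0.33. For *apoa1a* it gave 0.24, below 0.28. An exact test over all 20 assignments of the group labels gave p = 0.2 for *apoc1* and *apoa1b* and 0.1 for *apoa1a* and *apoda.2*. With 6 libraries, 0.1 is the smallest p that this exact test can give. Normalised counts did not overlap between groups in 2 members, *apoa1a* and *apoda.2*, a share near the 13.4% found over all genes. Over all tested genes the log2 fold change had a median of 0.36, or 0.57 with library totals only. Relative to the former, *apoda.2* was at −2.35, *apoa1b* at −0.96, *apoc1* at 0.72 and *apoa1a* at 0.77, and *apoc2* was the only member whose sign changed, to −0.16.

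Most directions held between fits. In limma-voom and in all 17 other fits tried, *apoa1a*, *apoc1* and *apoeb* had positive log2 fold changes, and *apoa1b*, *apoda.2*, *apoa4b.1*, *apobb.1* and *apom* had negative ones. *apoa2* and *apoc2* changed sign between fits. Relative to the median of all genes in each fit, *apoc1*, *apoa1a* and *apoeb* turned negative in 1 fit, that without crispant replicate 3, at −0.16, −0.55 and −0.58, since the median there was 1.61. *apoda.2* ranged from −2.32 to −1.29, *apoc1* from 0.77 to 1.45, *apoa1a* from 0.78 to 1.31 and *apoa1b* from −0.81 to −0.28. These fits reuse the same 6 libraries.

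**Figure D3:**
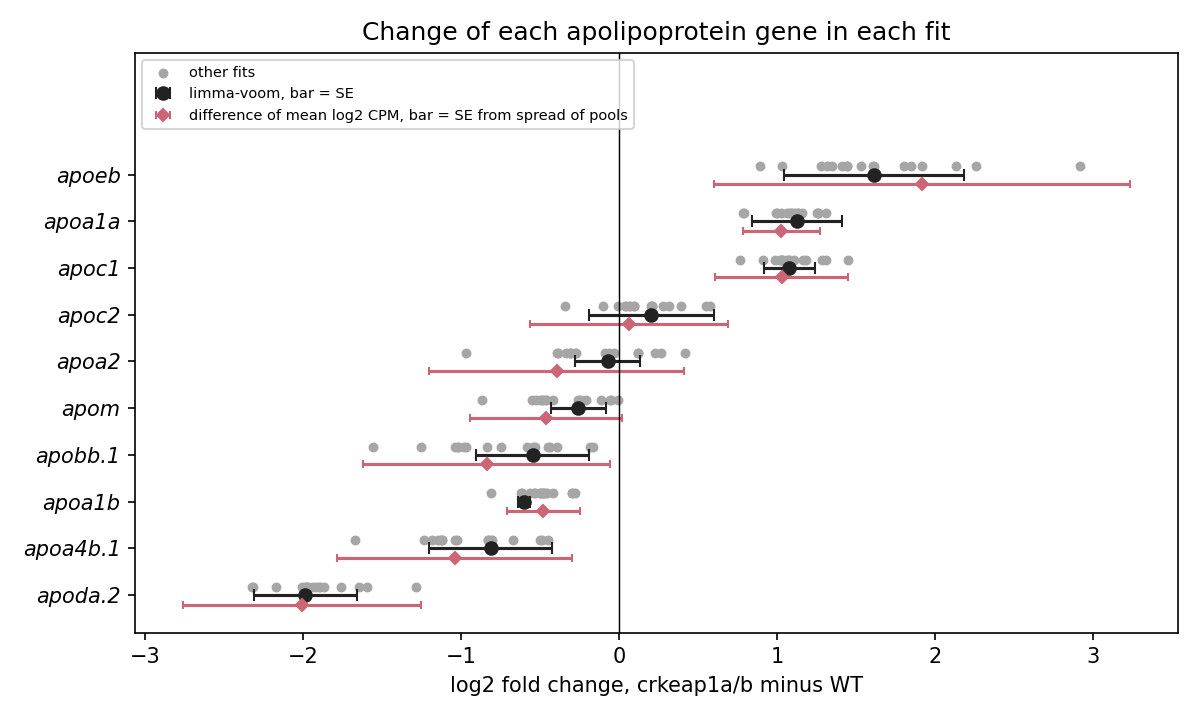
Log2 fold change (cr*keap1a/b* minus WT) of each member by limma-voom with its SE (black), as the difference of mean log2 CPM with the SE from the spread of 3 pools per group (red), and in 17 other fits (grey). For *apoa1b* the limma-voom SE of 0.039 is far smaller than the SE of 0.23 from the pools, and for *apoa2* and *apoc2* the grey points lie on both sides of 0.

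Because replicate 3 stood apart in both groups, the fit was repeated on the 4 libraries of letter a, with 2 pools per group. There 3 members were called higher (*apoc1*, *apoa1a* and *apoeb*) and 5 lower (*apoa1b*, *apoda.2*, *apobb.1*, *apoa4b.1* and *apom*), against 2.31% and 2.15% of the 6456 genes tested in that fit. *apoeb* rose by 2.26 on the log2 scale, at an adjusted p of 1.4e-07 by limma-voom. *apobb.1* and *apoa4b.1* were at −1.26 and −1.24 (limma-voom adjusted p = 1.3e-05 and 6.8e-05). Leaving out WT replicate 3 alone gave 2 members higher (*apoc1* and *apoeb*) and 6 lower, *apoa2* among them at −0.97, in a fit whose median over all genes was −0.50. Of the 6488 genes tested in that fit, 28 were called higher and 71 lower. The calls on *apoeb*, *apobb.1*, *apoa4b.1* and *apom* thus turned on WT replicate 3.

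Within letter b, 1 pool of each group gives ratios with no replicate. The ratio of the crispant to the WT pool was 2.91 for *apoa1a*, 2.27 for *apoeb*, 1.74 for *apoc1*, 0.673 for *apoa1b* and 0.141 for *apoda.2*. Each lay on the same side of 1 as in letter a, where the ratios of means were 1.71, 4.23, 2.20, 0.743 and 0.311. *apobb.1* had a ratio of 1.02 in letter b but 0.430 in letter a, and the difference between letters was not tested.

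A ratio inside a library does not depend on how libraries are scaled, so the members were also counted against *apoa1b*. *apoa1b* was itself called lower by limma-voom, and its share of the library was lower in all crispant pools. Such a reference raises every crispant ratio, so these ratios are no separate evidence for a rise. Per 1000 *apoa1b* counts, *apoc1* had 53.9, 40.1 and 37.6 for WT, against 117, 166 and 97.2. *apoda.2* had 31.8, 14.8 and 16.8 for WT, against 8.10, 11.5 and 3.52. In these 2 genes and in *apoa1a* the ratios did not overlap between groups, whereas they did in the other 6. Over the 6385 other genes tested, 12.6% had ratios higher in every crispant pool and 2.63% lower. The mean ratios of *apom* were 41.2 ± 11.7 and 41.4 ± 11.4 (SD, n = 3 each), a difference well within the spread, and those of *apoa2* were 160 ± 64.0 and 174 ± 79.3.

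**Figure D4:**
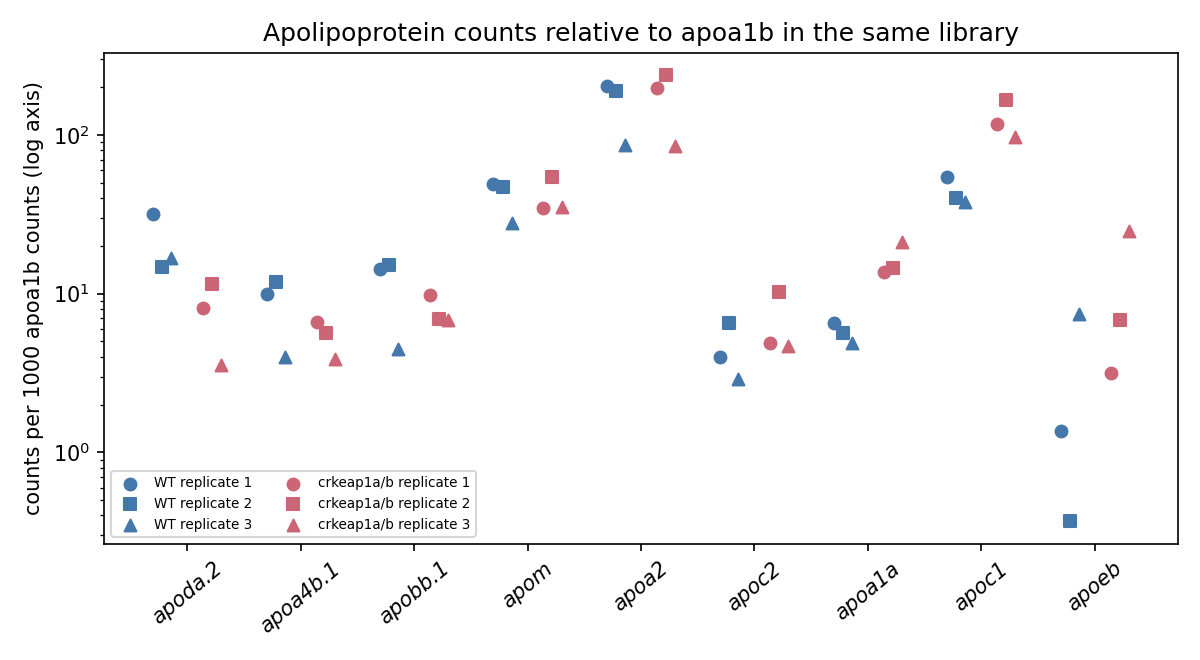
Counts of 9 apolipoprotein genes per 1000 *apoa1b* counts of the same library, on a log axis, for 3 WT and 3 cr*keap1a/b* pools. *apoc1* and *apoa1a* are higher and *apoda.2* is lower in all crispant pools than in all WT pools, and the other 6 genes overlap. The share of the library held by *apoa1b* was itself lower in all crispant pools, which raises the crispant ratios.

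The order of levels was alike at the top and differed below. By mean TMM-scaled CPM, WT livers ran *apoa1b*, *apoa2*, *apoc1*, *apom*, *apoda.2*, *apobb.1*, *apoa4b.1*, *apoa1a*, *apoc2* and *apoeb*. Crispant livers ran *apoa1b*, *apoa2*, *apoc1*, *apom*, *apoa1a*, *apoeb*, *apobb.1*, *apoda.2*, *apoc2* and *apoa4b.1*. In WT only the first 2 steps had ranges that did not touch, and each neighbouring pair from *apoc1* downwards overlapped. In the crispants the steps from *apoa1b* to *apoa2*, from *apoc1* to *apom* and from *apom* to *apoa1a* were clear, and the remaining neighbours overlapped. The counts of *apoa2* were 3.80, 4.71 and 2.31 times those of *apoc1* in WT, against 1.70, 1.43 and 0.874 times, so *apoc1* exceeded *apoa2* in 1 crispant library. The counts of *apobb.1* were at least 0.924 times those of *apoa1a* in every WT library, against 0.322 to 0.722 times in the crispants. These pairs were not planned, and no share over other gene pairs was computed. *apoc1* and *apoa1a* had each been called higher, so the ratios are no separate evidence.

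Of the 10 members, 5 lie in 1 stretch of the genome in the RefSeq annotation of the assembly GRCz12tu, used here for names and gene order only. From one end, the coding genes there are *apoa4b.1*, LOC100005908, *apoa4b.3*, *si:dkey-7f3.14*, *apoa4b.2*, *apoeb*, *apoc1*, *apoc4*, *apoa2* and *apoc2*. Along this cluster the log2 fold changes were −0.82 for *apoa4b.1*, −1.10 for *apoa4b.2*, 1.62 for *apoeb*, 1.08 for *apoc1*, 2.95 for *apoc4*, −0.07 for *apoa2* and 0.20 for *apoc2*, of which only that of *apoc1* passed. *apoc4* had few counts, 0, 17 and 0 for WT and 78, 82 and 0 for the crispants, and an SE of 3.73. Neighbouring genes thus had fold changes of both signs. *apoda.2* is next to *apoda.1*, while *apoa1a*, *apoa1b*, *apobb.1* and *apom* have no other apolipoprotein gene directly beside them.

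Other apolipoproteins were scarce by comparison. Of 15 listed genes, 5 were tested and none was called, and their median log2 fold change was −1.10, beside 0.36 over all genes. The most abundant were *apoba*, *apoa4b.2* and *apoea*, at means of 233, 119 and 28.3 CPM in WT. *apoea*, the paralog of *apoeb*, had 249, 45 and 915 counts in the WT pools and 0 in every crispant pool, where 3 counts would be 0.240 to 0.269 CPM of the library total. It did not pass, at a limma-voom adjusted p of 0.0705.

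Genes that act on lipoproteins had no call by limma-voom in any of 3 lists. Of 24 genes for assembly and secretion, 20 were tested, with a median log2 fold change of 0.31. The most abundant were *dgat2*, which makes triglyceride, *sar1b*, whose product serves the vesicles that leave the endoplasmic reticulum, and *soat2*, which esterifies cholesterol, at −0.43 ± 0.53, 0.75 ± 0.57 and 1.47 ± 0.62 (SE). In 3 genes of this list the groups did not overlap. *soat2* was higher in all crispant pools (limma-voom adjusted p = 0.428), and *pla2g12b* and *mttp*, the latter a lipid transfer protein that loads apolipoprotein B, were lower, at −2.14 ± 0.77 and −1.09 ± 1.42 (SE) and adjusted p-values of 0.235 and 0.980. Of 24 receptors, lipases and lipid transfer genes, 14 were tested, with a median of −0.56. *cetp*, *pltp* and *lcat*, which move or esterify lipid on circulating particles, were at −0.39 ± 0.44, 0.79 ± 0.60 and −0.26 ± 0.50 (SE). The lipase gene *lpla*, which is in none of the 3 lists, was lower in all crispant pools than in all WT pools. Its TMM-scaled means were 1204 ± 161 CPM for WT and 622 ± 34.3 CPM for the crispants (SD, n = 3 each). The log2 difference of *lpla* was −0.996 ± 0.295 (SE), and it did not pass (limma-voom adjusted p = 0.0778). Of 26 transcription factors and cofactors known to act on apolipoprotein genes or lipid metabolism in mammals, 18 were tested, with a median of −0.46, and *cebpb*, *srebf1* and *nr5a2* were the most abundant. None of the 8 vitellogenin genes listed, which encode yolk proteins, was among the rows analysed.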

How the data were processed

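Polyadenylated RNA of pooled dissected livers was sequenced in 6 libraries, 3 per group, with groups and replicate numbers read from sample titles. Per the labels' processing notes and the study's methods, adapters were removed by cutadapt 1.16, STAR 2.7.5b placed the reads on danRer11, and featureCounts 1.6.3 counted them per gene. The deposited values are raw counts under Entrez IDs, in 6637 rows. The 135 rows without an ID, which held 9.82% to 13.6% of counts, were left out of library totals and tests. Symbols came from a RefSeq table for 6426 of the remaining 6502 rows, and 2 rows that shared an ID were kept apart. Protein and promoter descriptions that had been planned were not made, since no sequences were used here.

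Following the study, limma-voom was run on the rows with an ID (R 4.3.3, limma 3.58.1, edgeR 4.0.16), with filterByExpr, TMM scaling, group as the only term and Benjamini-Hochberg adjustment over 6386 genes at a threshold of 0.05. Other tests were edgeR's quasi-likelihood test, DESeq2 1.42.0 and limma with a trend on log2 CPM (prior count 2). For the members, an exact permutation test of the difference of mean log2 CPM was also made. The limma-voom steps were also run on simulated counts with the same dispersion for all genes. Those counts lack the many zeros of replicate 3, so they do not test how the fit handles such libraries. The members and gene lists were chosen with earlier results of these data known. From each list the 3 most abundant genes and those called are named, apart from marker lists given by count. Likeness to *apoda.2* and to *apoa1b*, the most abundant member, was the root mean square difference of centred log2 CPM. *pla2g12b*, *mttp*, *apoc4*, *lpla* and the ratios to *apoa1b* and *amy2a* were added after values were seen, and *keap1a* and *keap1b* are named to check the labels. Ratios between pairs of members and to summed marker counts were not planned either.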

Additional observations from a re-analysis of the deposited data

How the results depend on the processing

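Calls on these genes depended on the test and on single pools. limma-voom called 2 members higher and 2 lower. edgeR's quasi-likelihood test called 0 and 0, with 2 and 3 at an unadjusted p under 0.05. DESeq2 (2 and 3 at that unadjusted p) and limma with a trend (3 and 3) each called 0 higher and 1 lower, *apoda.2*. RLE factors gave 1 higher, and so did including rows without a gene ID, a setting chosen after seeing the data. The description letter as covariate gave 0 higher and 1 lower, *apoa2*, and letter a alone 5 lower. A replicate block by title number gave 0 and 0, and a replicate block by description code 0 and 1, each with 3 and 6 at an unadjusted p under 0.05. Pools sharing a title number or description code deviated together only weakly, at r = 0.043, 0.0099 and 0.074 by title number and 0.045, 0.045 and 0.074 by description code. Pools sharing neither had r from −0.069 to −0.036. Every pair sharing neither joined a letter a pool with a letter b pool, and every other pair shared the letter. These r values therefore cannot tell a shared number from a shared letter. The numbers were not taken as pairs in the main fit. Such values do not settle whether pools were paired, since the study used clutch siblings as controls.

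With single pools left out, 0 to 3 members were called higher and 1 to 6 lower. No member was higher, and only *apoa1b* was lower, without WT replicate 1, WT replicate 2 or crispant replicate 2. The limma-voom SEs of *apoa1b* in these fits were 1.77e-05, 0.0013 and 0.0027, far below the 0.23 given by the spread of all pools. Without WT replicate 3 the lower members were 6, and without crispant replicate 3 the higher ones were 3. Library totals only gave 3 higher, *apoa2* among them, and 2 lower. *apoa2* turned to 0.12 with RLE factors and 0.26 with library totals only, and ran from −0.97 (without WT replicate 3) to 0.42 (without crispant replicate 3). It was called higher in 2 of these fits (library totals only and without crispant replicate 3) and lower in 3 (without WT replicate 3, the letter covariate and the block by code). *apoc2* turned to −0.010 in DESeq2 and ran from −0.35 (without WT replicate 3) to 0.58 (without WT replicate 2). The members' share of counts was 16.2% in WT with TMM-scaled totals. With rows without a gene ID in the totals it was 13.0% (WT) and 11.7% (cr*keap1a/b*), and with single pools left out 14.2% to 15.1% and 12.7% to 13.9%. Why these values moved was not tested.

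Over all genes, limma-voom called 38 higher and 38 lower. In the same order, RLE factors called 9 and 27, and library totals only 26 and 27. For the other tests the counts were 16 and 6 (edgeR), 103 and 46 (DESeq2) and 27 and 22 (limma with a trend). The blocks called 1 and 2 (title number) and 2 and 3 (code), the letter covariate 7 and 10, and letter a alone 149 and 139. The threshold of 0.1 gave 62 and 56, and including rows without a gene ID 24 and 29. Fits without single pools gave 0 to 125 higher and 1 to 71 lower. The lowest count of any member was 416.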
